A study of Mus musculus with 8 samples.

Results

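Integrins are heterodimeric adhesion receptors of an α and a β chain, and the expression of 10 of their genes was read here in hematopoietic stem cells (HSCs) and in the wider stem and progenitor population of mouse bone marrow, each cultured with or without red blood cells (RBCs). The 10 chains, Itgam, Itgal, Itgb2, Itga2b, Itgb3, Itgav, Itga4, Itga5, Itga6 and Itgb1, were found by symbol among the 24346 gene symbols of the series. All 10 were among the 12003 genes that passed the filter on low values, an expression of at least 1 FPKM (fragments scaled by transcript length and by library size) in at least 2 libraries. Itgam was selected on values measured in these libraries: the study named it for its rise with RBCs and for its like level in both populations, so its values are a description and carry no test. The other 9 chains were taken as its partners and relatives, and the counts below are over those 9.

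RNA from 8 libraries was sequenced, with 2 libraries in each of 4 groups. LSK cells were Lin- Sca-1+ c-Kit+ cells, and HSCs were the CD150+ CD48- cells among them, both from the bone marrow of wild-type C57BL/6 mice. All 4 groups were kept for 1 day in medium with stem cell factor and thrombopoietin, either alone or together with RBCs, which came from mouse blood filtered to remove leukocytes and were irradiated. After culture the RBCs were lysed and CD45-positive cells were sorted, a step meant to remove RBCs; hemoglobin RNA in the libraries is given beside the β2 results. The lineage cocktail of the first sort is known to hold an antibody to CD11b, the product of Itgam, so cells with much CD11b on their surface were removed before the culture began. No source used here says that the 2 libraries of a group came from separate animals or cultures, so the p-values measure the spread between these libraries, which may be technical.

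The labels of both populations were checked against the genes of the antigens used in the sort. Slamf1, which encodes CD150, stood at 10.2 and 10.7 FPKM in HSCs without RBCs and at 4.58 and 4.63 in LSK cells without RBCs. Cd48 stood at 42.7 and 40.5 FPKM in these HSCs and at 147 and 184 in these LSK cells. Slamf1 was therefore higher and Cd48 lower in HSCs without RBCs, in the directions of the gate, although Cd48 RNA was present in both populations. With RBCs Slamf1 had 5.50 and 6.59 FPKM in HSCs and 3.09 and 4.28 in LSK cells. Cd48 then had 16.0 and 22.8 in HSCs and 124 and 128 in LSK cells. The order was kept, but both genes were lower in HSCs with RBCs than without. Of 8 HSC markers 0 rose in HSCs with RBCs, with a median change of -0.19 in log2(FPKM + 1) against -0.01 over all genes. Ptprc, which encodes CD45, lay between 38.3 and 50.6 in all 8 libraries. The sum of FPKM ran from 680942 to 752107. The values of 6048 of 7378 low genes (82.0%) were whole multiples of 1 step within a tolerance of 0.02 steps, which gave depths of 0.886 to 1.13 relative to the first LSK library without RBCs. If 1 step is 1 read, the chains rested on about 24 reads (Itgal in the second HSC library without RBCs) to about 5079 reads (Itgb1).

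Which α chain meets which β chain decides what a cell can bind. The β2 chain pairs with αL, giving LFA-1, or with αM, giving Mac-1, and these leukocyte integrins bind ICAM proteins, with Mac-1 also binding complement fragments and fibrinogen. The β1 chain pairs with α4, α5 or α6 to bind VCAM-1, fibronectin or laminin, and is known for holding stem and progenitor cells in the marrow. The β3 chain pairs with αIIb, the fibrinogen receptor of platelets that also marks early hematopoietic cells as CD41, or with αV, the vitronectin receptor.

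The reference table of RefSeq (GRCm38.p6) had a start site for 6 of the 10 genes, Itgam, Itga4, Itga5, Itgb1, Itga2b and Itgav, and the 250 bases before the start were searched on both strands for 4 short motifs. These were the PU.1 box GAGGAA, found in 23.3% of 32851 mouse promoters of this length, the RBPJ core TGGGAA (21.6%), the N-box CACNAG bound by Hes proteins (36.7%) and the GATA core AGATAA (9.99%). PU.1 is the factor known for the myeloid expression of Itgam. The promoters of Itgam, the chain with the largest change with RBCs, and of Itga4, a β1 partner with a change under 2-fold, are printed to set a chain with a large change beside one whose differences with RBCs did not pass the test, with the motif letters in capitals. The first lies at chr7:128062390-128062639 and the second at chr2:79255176-79255425, both on the plus strand.
Itgam: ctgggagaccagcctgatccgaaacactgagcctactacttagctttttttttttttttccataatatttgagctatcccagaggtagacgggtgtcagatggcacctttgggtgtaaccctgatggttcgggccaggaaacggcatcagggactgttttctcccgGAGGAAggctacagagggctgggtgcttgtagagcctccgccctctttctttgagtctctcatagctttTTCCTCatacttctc
Itga4: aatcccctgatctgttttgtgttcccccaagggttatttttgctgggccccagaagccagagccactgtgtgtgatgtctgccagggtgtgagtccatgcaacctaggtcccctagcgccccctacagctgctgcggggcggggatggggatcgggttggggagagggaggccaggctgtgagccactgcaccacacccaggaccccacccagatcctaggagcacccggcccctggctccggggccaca
The Itgam stretch held 2 PU.1 boxes, 1 on the given strand at 84 to 79 bases and 1 on the reverse strand at 15 to 10 bases before the start, and none of the other 3 motifs. The Itga4 stretch held none of the 4 motifs. These are matches of letters and not measured sites. Itga5, Itgb1, Itga2b and Itgav each held at least 1 PU.1 box as well, and their differences with RBCs did not pass the test either. Itga2b and Itgav held 2 each, as many as Itgam, so Itga4 was the only 1 of the 6 with none. Itga2b also held 1 RBPJ core and 1 N-box, the only ones found in the 6 promoters. The relation of these motifs to the changes with RBCs was not tested.

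On the log2(FPKM + 1) scale, the listed chains with a rise past 2-fold with RBCs were all of the β2 family of leukocyte integrins. These were Itgb2 in both populations and Itgal in LSK cells, beside the selected Itgam. In HSCs Itgal differed by 0.74, less than Itgb3 (0.88). Itgae, a chain outside the list and the β2 family, rose more than Itgb2 and Itgal, by 1.87 (HSCs) and 1.38 (LSK cells). Itgam, the αM chain (chromosome 7, 128062640 to 128118491), stood at 3.54 and 3.14 FPKM in HSCs without RBCs and at 22.5 and 25.9 with RBCs. In LSK cells the values were 5.85 and 7.73 without RBCs and 26.5 and 28.1 with RBCs. In both populations all libraries with RBCs lay far above those without, and the mean FPKM was 7.26-fold higher in HSCs and 4.02-fold higher in LSK cells. On the scale of the tests, log2(FPKM + 1), the differences were 2.54 (SE 0.14) and 1.87 (SE 0.14). These values chose the gene and are given with no test. In GENCODE M21 Itgam overlaps the protein-coding gene Gm49368 on the same strand, and reads of the shared exons cannot be assigned to either with certainty. In bulk RNA a change in the number of cells of a type and a change in the RNA per cell cannot be told apart, here and in every result below.

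Itgb2, the β2 chain that αM and αL share (chromosome 10, 77530252 to 77565708), stood at 4.23 and 4.20 FPKM in HSCs without RBCs and at 12.3 and 8.75 with RBCs. In LSK cells it had 2.70 and 3.20 without RBCs and 9.17 and 5.74 with RBCs. The groups did not overlap in either population, and the libraries with RBCs differed more among themselves than those without. The change was 1.13 (SE 0.22, adjusted p = 0.029) in HSCs and 1.07 (SE 0.22, adjusted p = 0.032) in LSK cells on the log2 scale, past the threshold of an adjusted p under 0.05 with at least a 2-fold change in both. The mean FPKM rose 2.50-fold in HSCs and 2.53-fold in LSK cells. Both calls were near the threshold: the call in HSCs was lost in 5 of 13 alternatives (adjusted p 0.030 to 0.22) and that in LSK cells in 6 of 13 (0.027 to 0.18). Leaving out either HSC library without RBCs (adjusted p = 0.097 and 0.14), the first HSC library with RBCs (0.22), either LSK library without RBCs (0.16 and 0.098) or the first LSK library with RBCs (0.18) ended the call concerned.

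Itgal, the αL chain (chromosome 7, 127296260 to 127335138), was the lowest of the 10 chains in HSCs, with 0.580 and 0.411 FPKM without RBCs and 1.41 and 1.58 with RBCs. In LSK cells its values were 4.37 and 3.08 without RBCs and 9.56 and 9.80 with RBCs. The libraries with RBCs lay above those without in both populations, and every LSK library lay above every HSC library. In LSK cells it rose by 1.19 on the log2 scale (SE 0.18, adjusted p = 0.0089). In HSCs the difference was 0.74 (SE 0.18, adjusted p = 0.071) and did not pass. The ratio of mean FPKM was as large in HSCs, 3.02, as in LSK cells, 2.60, since adding 1 to every value shrinks the change of a gene near or below 1 FPKM. With 0.1 or 0.5 added in place of 1, the HSC difference passed both thresholds (1.43, adjusted p = 0.024, and 1.01, adjusted p = 0.043). The call in LSK cells was lost without the second library without RBCs (adjusted p = 0.056) and without either library with RBCs (0.070 and 0.077).

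Across the 9 chains, 1 was called in HSCs (Itgb2), where 0.775% of all 12003 genes were called, and 2 were called in LSK cells (Itgal and Itgb2), where 1.01% were. By the adjusted p alone, 2 of 9 chains passed in HSCs against 2.53% of all genes, and 2 of 9 in LSK cells against 3.45%. The median change of the 9 chains was 0.23 (HSCs) and 0.29 (LSK cells), and the median over all genes was -0.01 in each. Both libraries with RBCs lay above both without for 6 of the 9 chains in HSCs (19.9% of all genes) and for 6 of the 9 in LSK cells (24.2%). The chains share partners and cells and are not independent of each other.

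**Figure D1:**
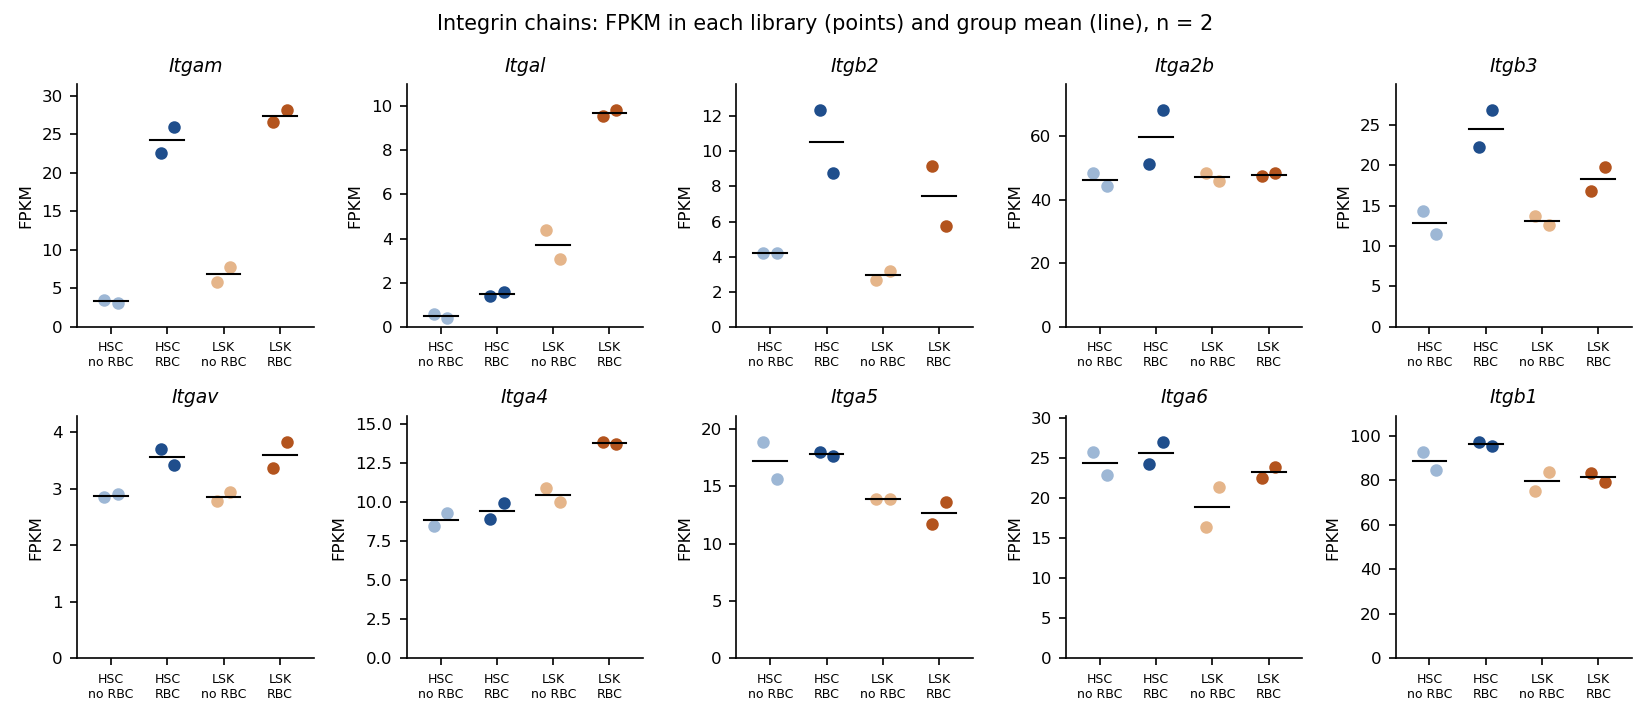
FPKM (vertical axes, linear, from 0) of the 10 integrin chains in each of the 8 libraries. Points are libraries, lines are means of 2 libraries, and the horizontal axis gives the 4 groups; Itgam is at 3.14 to 7.73 in the 4 libraries without RBCs and at 22.5 to 28.1 in the 4 with RBCs, while Itgb1 lies between 75.4 and 97.3 throughout.

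**Figure D2:**
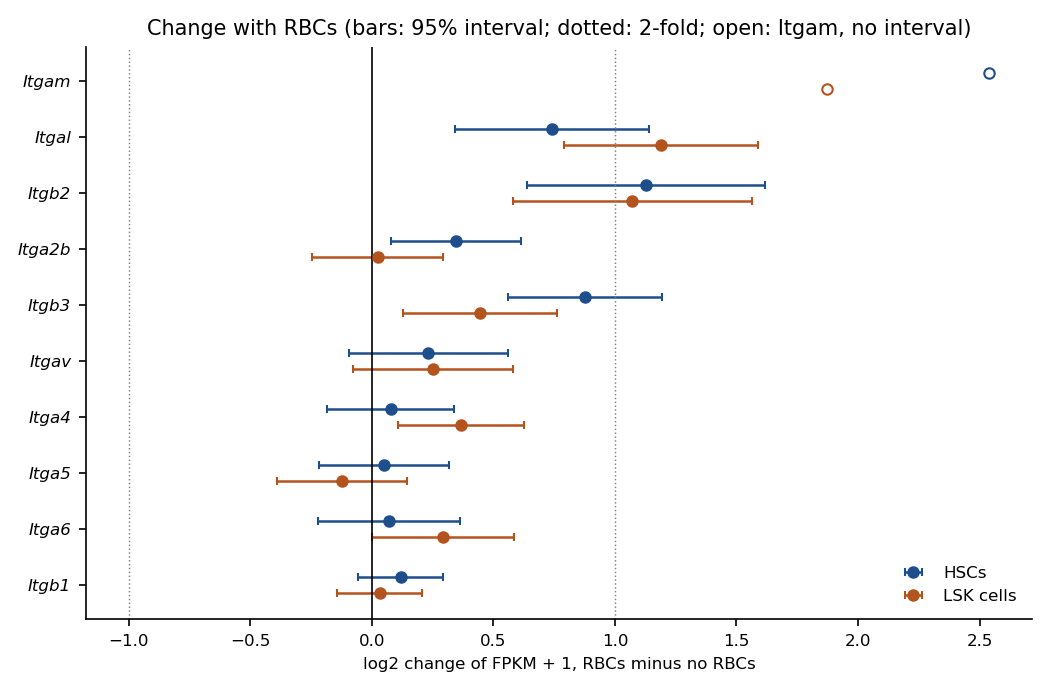
Change with RBCs in log2(FPKM + 1) (horizontal axis) of the 10 chains in HSCs and LSK cells. Filled points with bars are the fitted change and its 95% interval from 2 against 2 libraries, open points are Itgam with no interval, and dotted lines mark a 2-fold change; Itgb2 in both populations and Itgal in LSK cells lie past 1.

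The RNA of neutrophil markers was also higher with RBCs. The summed FPKM of 11 neutrophil markers was 32.4 to 39.3 in HSCs without RBCs and 88.5 to 299 with RBCs, and 188 to 285 in LSK cells without and 447 to 654 with RBCs, with none of the 11 at 0 throughout. S100a8, a calcium-binding protein of neutrophils, had 148 FPKM in the first and 22.3 in the second HSC library with RBCs, and 303 and 204 in the LSK libraries with RBCs. Itgb2 was the higher of its pair in the library with more S100a8 in both populations, while Itgam and Itgal were the lower. Of the 11 neutrophil markers, all tested, 2 were called higher in HSCs (S100a8 and S100a9) and 3 in LSK cells (Retnlg, Mmp9 and Mmp8). Of all genes, 0.775% were called in HSCs and 1.01% in LSK cells, in either direction. Some monocyte genes rose too, against the same shares of all genes. Of 6 monocyte or macrophage markers tested, 1 was called higher in HSCs (Csf1r) and 2 in LSK cells (Csf1r and Ccr2), with none called lower. Csf1r, the receptor for the macrophage growth factor, had 2.53 and 2.81 FPKM in HSCs without RBCs and 7.07 and 9.37 with RBCs, a rise of 1.32 (SE 0.21, adjusted p = 0.012). In LSK cells it had 14.1 and 22.8 without and 47.2 and 54.3 with RBCs, a rise of 1.44 (SE 0.21, adjusted p = 0.0075). Ccr2, a chemokine receptor of monocytes, had 7.61 and 4.57 FPKM in LSK cells without and 34.4 and 35.0 with RBCs, a rise of 2.37 (SE 0.20, adjusted p = 5.8e-04). The summed FPKM of all 11 such markers was 403 to 437 in HSCs without and 331 to 334 with RBCs, and 279 to 367 in LSK cells without and 499 to 616 with RBCs, and rested mostly on Lyz2, which had 312 and 321 FPKM in HSCs without and 221 and 218 with RBCs (a difference of -0.53, adjusted p = 0.20). Adgre1, Mrc1 and Fcgr1, genes of mature macrophages, were under 1 FPKM in every library and C1qa was listed at 0. The part of these markers in the rise of the β2 chains was not tested.

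Some genes of RBCs rose with RBCs as well. Hba-a1, an α-globin gene, had 0.0826 and 1.40 FPKM in HSCs without RBCs and 116 and 88.7 with RBCs, and 0.864 and 1.53 in LSK cells without and 32.9 and 43.1 with RBCs, a rise of 5.99 (SE 0.33, adjusted p = 3.8e-05) and of 4.16 (SE 0.33, adjusted p = 4.7e-04). Of 7 RBC markers tested, 3 were called higher in HSCs (Hba-a1, Hbb-b1 and Alas2), where 0.775% of all genes were called, and 1 in LSK cells (Hba-a1), where 1.01% were, with none called lower. Hbb-b1, a β-globin gene, rose in HSCs by 3.97 (SE 0.33, adjusted p = 4.0e-04), and Alas2, the erythroid enzyme of heme synthesis, by 1.43 (SE 0.24, adjusted p = 0.017). In LSK cells Hbb-b1 differed by -1.24 (adjusted p = 0.080) and Alas2 by 0.67 (adjusted p = 0.19). The globin genes are near-identical copies among which reads can be split in uncertain ways: Hbb-b2, the most abundant, had 279 and 335 FPKM in HSCs without and 120 and 158 with RBCs, a difference of -1.14 (adjusted p = 0.16). Hbb-bs, another β-globin gene, had 0.00522 and 0.172 FPKM in LSK cells without and 18.9 and 19.4 with RBCs. In HSCs it had 0.0123 and 0.0386 without and 0.00753 and 19.1 with RBCs. The summed FPKM of 9 RBC markers overlapped with and without RBCs. In HSCs it was 300 to 355 without and 323 to 332 with RBCs. For LSK cells it was 128 to 192 without and 136 to 197 with RBCs. Slc4a1, the anion exchanger of the RBC membrane, was under 1 FPKM in every library. The part of RBC RNA in the rise of the β2 chains was not tested.

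The β3 chain rose in HSCs, while its αIIb partner did not pass the test. Itgb3 (chromosome 11, 104608000 to 104670476) had 14.3 and 11.5 FPKM in HSCs without RBCs and 22.2 and 26.8 with RBCs. The LSK libraries had 13.7 and 12.6 without and 16.9 and 19.7 with RBCs. It rose in HSCs by 0.88 (SE 0.14, adjusted p = 0.013), a change under 2-fold, and differed by 0.45 in LSK cells (SE 0.14, adjusted p = 0.13). Leaving out the second library of either HSC group took the HSC rise past an adjusted p of 0.05 (0.086 and 0.098), and so did testing all genes above 0 (0.075). Without the first library of either HSC group it exceeded 2-fold (1.03 and 1.01).

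Itga2b, the αIIb chain (chromosome 11, 102453297 to 102470122), had 48.2 and 44.4 FPKM in HSCs without RBCs and 51.3 and 68.0 with RBCs. The LSK libraries had 48.3 and 45.9 without and 47.3 and 48.4 with RBCs. Its level stayed within 44.4 to 51.3 in 7 of the 8 libraries, and the second HSC library with RBCs stood above the rest. The differences with RBCs were 0.35 (95% interval 0.08 to 0.62, adjusted p = 0.22) in HSCs and 0.02 (95% interval -0.25 to 0.29, adjusted p = 0.94) in LSK cells. Itgav, the other partner of β3 (chromosome 2, 83724397 to 83806916), had 2.85 and 2.90 FPKM in HSCs without and 3.70 and 3.41 with RBCs, and 2.78 and 2.94 in LSK cells without and 3.37 and 3.83 with RBCs. Its libraries with RBCs lay above those without in both populations, yet the differences of 0.23 (adjusted p = 0.57) and 0.25 (adjusted p = 0.40) did not pass. The summed FPKM of 8 platelet and megakaryocyte markers, among which Gp6 was listed at 0, was 161 to 195 in HSCs without RBCs, 145 to 147 with RBCs, 68.3 to 160 in LSK cells without and 38.6 to 52.7 with RBCs. Pf4 carried most of it in HSCs, with 148 and 115 FPKM without and 106 and 101 with RBCs. Of the 7 tested, 0 passed an adjusted p of 0.05 in HSCs by limma, where 2.53% of all genes did. Gp9, which was lower with RBCs, was the 1 at an unadjusted p under 0.05. Pf4 was called lower in LSK cells, where 1.01% of all genes were called. The platelet receptor gene Gp1ba, which was not on that list, rose in HSCs, as given with the ligands. The part of platelet or megakaryocyte RNA in the level of Itgb3 was not tested.

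The chains of the β1 integrins, which bind the marrow matrix and stroma, differed little with RBCs. Itgb1 (chromosome 8, 128685654 to 128733200) was the most abundant chain per length of transcript in all 8 libraries, with 92.7 and 84.8 FPKM in HSCs without RBCs, 97.3 and 95.4 with RBCs, 75.4 and 83.9 in LSK cells without and 83.4 and 79.4 with RBCs. Its change was 0.12 (95% interval -0.06 to 0.29) in HSCs and 0.03 (95% interval -0.14 to 0.21) in LSK cells, intervals that hold no change of 2-fold. Itga4, the α chain of the VCAM-1 receptor (chromosome 2, 79255426 to 79333123), had 8.46 and 9.27 FPKM in HSCs without and 8.90 and 9.92 with RBCs, which overlapped. The LSK libraries had 10.9 and 10.002 without and 13.8 and 13.7 with RBCs, which did not overlap, and the difference of 0.37 (SE 0.12, adjusted p = 0.13) did not pass. Itga4 overlaps Cerkl on the other strand (2.13 to 5.24 FPKM), and no source used here says that strand was used in counting.

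Itga5, the α chain of the fibronectin receptor (chromosome 15, 103344286 to 103366763), had 18.9 and 15.6 FPKM in HSCs without RBCs and 17.96 and 17.7 with RBCs. The LSK libraries both had 13.9 without and 11.8 and 13.6 with RBCs. This was the 1 case among the 9 chains in which both libraries with RBCs lay below both without. Of all genes, 26.4% lay in that order in LSK cells and 21.8% in HSCs. The differences were 0.05 (adjusted p = 0.92) in HSCs and -0.12 (adjusted p = 0.64) in LSK cells. Itga6, the α chain of a laminin receptor (chromosome 2, 71745616 to 71858416), had 25.8 and 22.9 FPKM in HSCs without and 24.3 and 27.0 with RBCs, and 16.4 and 21.4 in LSK cells without and 22.5 and 23.9 with RBCs. Its differences were 0.07 (adjusted p = 0.89) and 0.29 (adjusted p = 0.27), and the LSK groups did not overlap. The 95% intervals of Itga4, Itga5 and Itga6 also stayed within a 2-fold change in both populations. Itga5, Itga6, Itga2b and Itgav overlap noncoding genes in the annotation.

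Among the 9 chains, αL was the one called between LSK cells and HSCs. Without RBCs Itgal was 1.65 higher in LSK cells on the log2 scale (SE 0.18, adjusted p = 4.8e-04), and with RBCs 2.098 higher (SE 0.18, adjusted p = 9.1e-05). The mean FPKM was 7.52-fold and 6.47-fold higher, and the call was kept in all 13 alternatives of each comparison. It was the 1 chain of 9 called in each, where 2.66% of all genes were called without RBCs and 3.61% with RBCs. By the adjusted p alone 1 of 9 chains passed without RBCs, against 14.2% of all genes, and 3 of 9 with RBCs, against 24.4%, so the shares of chains were close to those of all genes. The summed FPKM of some marker lists moved in the same direction without RBCs. The neutrophil markers did so as given above, and 3 multipotent progenitor markers (Cd48, Flt3 and Cd34) had 379 to 385 in HSCs and 758 to 819 in LSK cells. The 5 NK cell markers had 58.3 to 63.0 in HSCs and 184 to 186 in LSK cells, mostly from Nkg7 (57.3 and 62.3, then 184 and 182). The 5 mast cell and basophil markers had 5.50 to 6.94 in HSCs and 27.9 to 45.0 in LSK cells. Among them Cpa3 had 2.83 and 1.40, then 17.8 and 26.0. Other lists were lower in LSK cells than in HSCs: monocyte or macrophage markers (279 to 367 against 403 to 437), platelet and megakaryocyte markers (68.3 to 160 against 161 to 195), RBC markers (128 to 192 against 300 to 355) and HSC markers (228 to 236 against 384 to 397). Ncr1, Gzma and Klrk1 of the NK cell list were under 1 FPKM in every library. The 6 T cell markers summed to 15.1 to 16.0 in the HSCs and 20.7 to 21.9 in the LSK cells. That sum came mostly from Lat (14.6 and 15.4, then 20.9 and 19.6), with Cd3e, Cd3d, Cd3g and Cd8a under 1. The part of these cells in the level of Itgal was not tested.

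With RBCs, Itga4 was 0.51 higher in LSK cells than in HSCs (SE 0.12, adjusted p = 0.013) and Itga5 0.46 lower (SE 0.12, adjusted p = 0.021), both under 2-fold. Leaving out the first HSC library with RBCs or either LSK library with RBCs took Itga4 past an adjusted p of 0.05 (0.091, 0.066 and 0.068), and leaving out either HSC library or the first LSK library with RBCs did so for Itga5 (0.10, 0.085 and 0.13). Without RBCs the differences were 0.22 (adjusted p = 0.26) for Itga4 and -0.29 (adjusted p = 0.15) for Itga5, with the same order of the libraries, since every LSK library had more Itga4 and less Itga5 than every HSC library. The 4 libraries of LSK cells also had less Itgb1 than those of HSCs in the same condition, by 0.16 without RBCs (adjusted p = 0.23) and 0.24 with RBCs (adjusted p = 0.051), which did not pass. Itga6 was 0.36 lower in LSK cells without RBCs (adjusted p = 0.10) and 0.14 lower with RBCs (adjusted p = 0.48).

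No difference in Itgb2 or in the β3 dimers passed the test between the populations. Itgb2 differed by -0.41 (adjusted p = 0.26) without RBCs, where the LSK libraries lay below the HSC libraries, and by -0.46 (adjusted p = 0.16) with RBCs, where they overlapped. Itgb3 differed by 0.03 (adjusted p = 0.91) without and by -0.40 (adjusted p = 0.067) with RBCs. Itga2b differed by 0.02 (adjusted p = 0.92) and -0.30 (adjusted p = 0.10), and Itgav by -0.01 (adjusted p = 0.98) and 0.01 (adjusted p = 0.96). Itgam, with no test, was 0.84 higher in LSK cells without RBCs and 0.17 higher with RBCs.

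**Figure D3:**
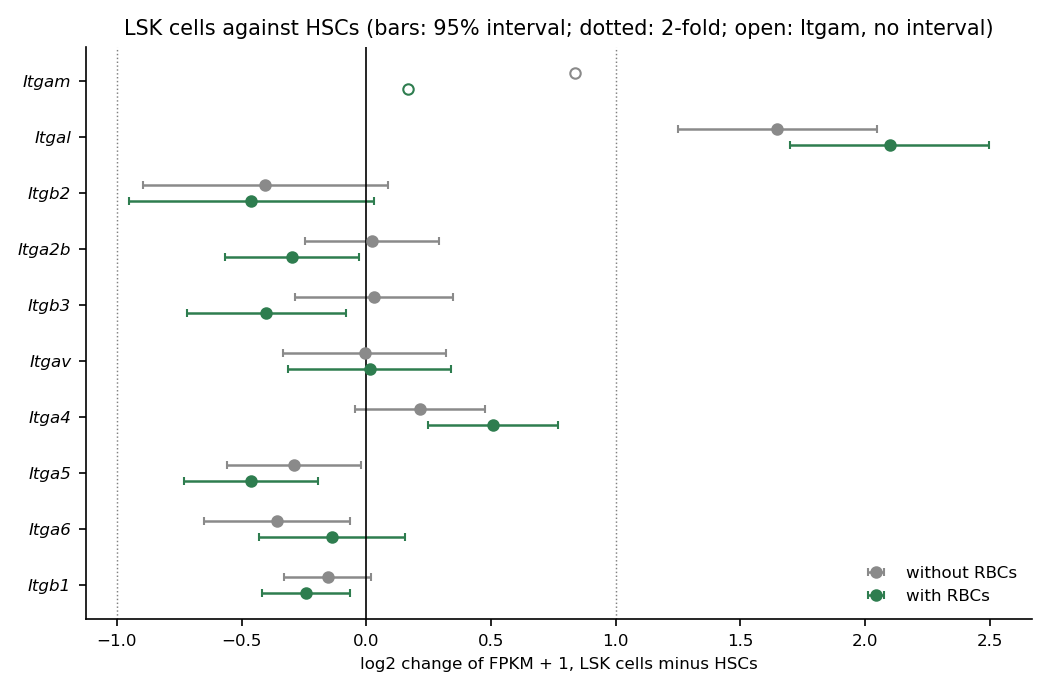
Difference between LSK cells and HSCs in log2(FPKM + 1) (horizontal axis, LSK cells minus HSCs) without and with RBCs. Filled points with bars are the fitted difference and its 95% interval from 2 against 2 libraries, open points are Itgam with no interval, and dotted lines mark a 2-fold difference; Itgal lies past 1 in both conditions, at 1.65 and 2.098.

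Whether a chain responded differently to RBCs in the 2 populations was tested as an interaction. None of the 9 chains was called by limma, with or without the fold threshold, and 0 of 9 had an unadjusted p under 0.05, where 0.108% of all genes were called and 0.133% passed by the adjusted p alone. The HSC change minus the LSK change ran from -0.45 for Itgal (95% interval -1.01 to 0.11, adjusted p = 0.50) to 0.43 for Itgb3 (95% interval -0.02 to 0.88, adjusted p = 0.42). That of Itgb2 was 0.06 (95% interval -0.64 to 0.75). The rise of Itgal past the threshold in LSK cells and of Itgb3 in HSCs is therefore not shown to be particular to either population, and the intervals leave room for differences of over 0.8 in 1 direction for both.

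Read as partners, the balance of αIIb to β3 shifted with RBCs in both populations, and that of α4 to α5 in LSK cells. The ratios given for the β2 chain and its α partners all hold the selected αM. The ratio of αM to αL was 6.10 and 7.63 in HSCs without RBCs and 16.0 and 16.4 with RBCs, and 1.34 and 2.51 in LSK cells without and 2.78 and 2.86 with RBCs. At the level of RNA the αM chain thus exceeded αL in all 8 libraries, most of all in HSCs with RBCs. Itgam was selected for its rise with RBCs in these libraries. A rise with RBCs in any ratio or share that holds αM, here and below, is therefore no separate finding. αM made up 84.1% and 88.4% of the summed FPKM of the 4 α chains that pair with β2 (αL, αM, αX and αD) in HSCs without RBCs and 93.3% and 94.1% with RBCs, and 54.1% to 73.1% in LSK cells. The αX chain Itgax and the αD chain Itgad stayed under 1 FPKM in every library.

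The sum of these 4 α chains over Itgb2 was 0.994 and 0.845 in HSCs without RBCs, near 1 chain to 1, and 1.96 and 3.15 with RBCs. For LSK cells it was 4.01 and 3.53 without and 4.03 and 6.69 with RBCs. The ratio was higher with RBCs in both HSC libraries, and in LSK cells the lower library with RBCs barely exceeded the higher one without. The ratio of Itgb1 to Itgb2 was 21.9 and 20.2 in HSCs without RBCs against 7.89 and 10.9 with RBCs, and 28.0 and 26.2 in LSK cells without RBCs against 9.10 and 13.8 with RBCs. These groups did not overlap, and the lower ratio went with a higher Itgb2 beside an Itgb1 that differed little. The ratio of αIIb to β3 was 3.37 and 3.88 in HSCs without RBCs, 2.31 and 2.54 with RBCs, 3.53 and 3.65 in LSK cells without and 2.81 and 2.45 with RBCs, so all 4 libraries with RBCs lay below all 4 without. αIIb made up 92.7% to 95.2% of the sum of αIIb and αV.

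The 3 α partners of β1 summed to 0.526 to 0.646 of Itgb1 in all 8 libraries, the narrowest range of the ratios given here. Within them the ratio of α4 to α5 was 0.448 and 0.593 in HSCs without RBCs, 0.496 and 0.561 with RBCs, 0.787 and 0.720 in LSK cells without and 1.18 and 1.004 with RBCs. The HSC groups overlapped and the LSK groups did not. The LSK libraries with RBCs were the only ones with at least as much Itga4 as Itga5. These ratios are of RNA per length and not of protein, and are given with no test.

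**Figure D4:**
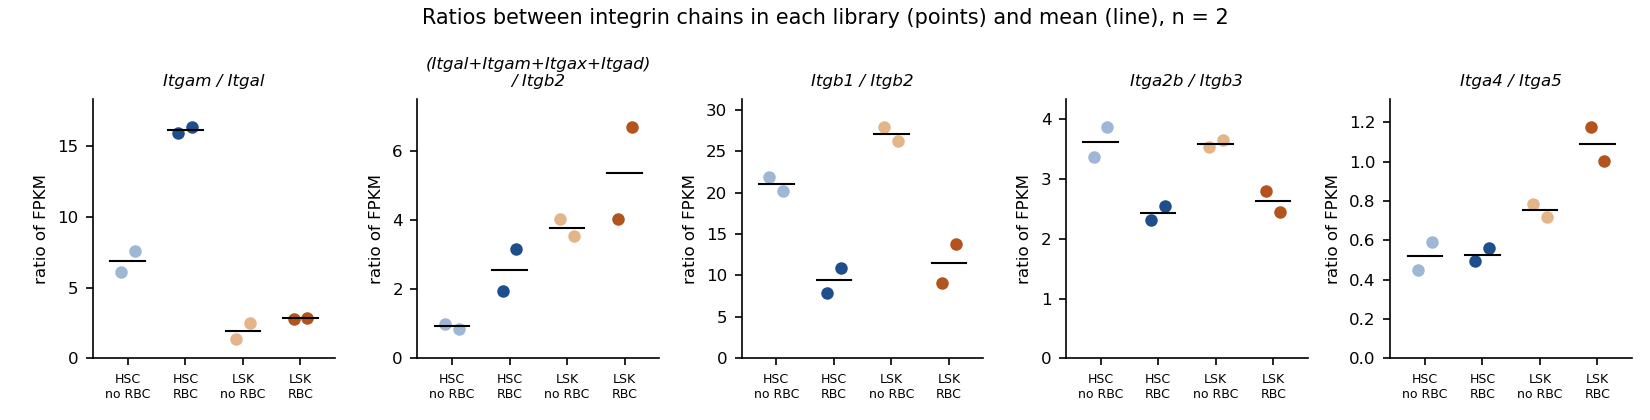
Ratios of FPKM between integrin chains (vertical axes, linear, from 0) in each of the 8 libraries, with points for libraries and lines for means of 2. The panels show Itgam over Itgal (1.34 to 16.4), the 4 α chains over Itgb2 (0.845 to 6.69), Itgb1 over Itgb2 (7.89 to 28.0), Itga2b over Itgb3 (2.31 to 3.88) and Itga4 over Itga5 (0.448 to 1.18).

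In order of level per length, Itgb1 came first and Itga2b second in all 4 groups, and neighbours in the order did not overlap in HSCs without RBCs, from Itgb1 over Itga2b, Itga6, Itga5, Itgb3, Itga4, Itgb2, Itgam and Itgav down to Itgal. With RBCs Itgam, selected for its rise, moved from the 8th place to the 5th in HSCs, where it overlapped Itgb3 above it and Itgb3 overlapped Itga6. In LSK cells it moved from the 7th place to the 3rd and lay above Itga6 with no overlap. Itgal and Itgav held the lowest places in HSCs. In LSK cells without RBCs Itgal, Itgb2 and Itgav overlapped in turn.

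By the spread of the 4 group means on the log2 scale, Itgal (2.84) and Itgam (2.71) varied most, then Itgb2 (1.53) and Itgb3 (0.88), and Itgav least (0.25). Among the 12003 genes, those whose centred values over the 8 libraries lay closest to Itgal were Slc35d3 (root mean square difference 0.205), Tm6sf1 (0.229), Itgb7 (0.261), Arl11 (0.264) and Ltb4r1 (0.271). Those closest to Itgam were Gbp4 (0.266), Gbp6 (0.285), Itgae (0.319), AA467197 (0.341) and Htra1 (0.350). Gbp4, Gbp6 and AA467197 were named by the study together with Itgam, for a rise with RBCs and a like level in both populations. Their likeness to Itgam follows from that choice in these libraries and is no separate finding. Gbp4, a guanylate-binding protein that interferon induces, had 5.81 and 5.75 FPKM in HSCs without RBCs, 25.2 and 25.6 with RBCs, 5.26 and 9.57 in LSK cells without and 33.6 and 31.0 with RBCs. Each list thus held 1 further integrin chain, β7 near αL and αE near αM.

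Of the other 17 integrin chains, 4 passed the filter on low values (Itgae, Itgb4, Itgb5 and Itgb7). Itgae, the αE chain that pairs with β7 to bind E-cadherin, had 2.37 and 2.64 FPKM in HSCs without RBCs and 12.1 and 11.6 with RBCs, and 3.76 and 4.79 in LSK cells without and 13.1 and 12.3 with RBCs. It rose by 1.87 (SE 0.14, adjusted p = 3.0e-04) in HSCs and by 1.38 (SE 0.14, adjusted p = 0.0011) in LSK cells, the 1 call among the 4 in each. Of all genes, 0.775% were called in HSCs and 1.01% in LSK cells. Its level was low without and high with RBCs in both populations.

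Itgb7, which pairs with αE or with α4, had 8.59 and 6.09 FPKM in HSCs without and 7.72 and 8.51 with RBCs, and 26.2 and 18.7 in LSK cells without and 39.4 and 39.8 with RBCs. It was higher in LSK cells than in HSCs by 1.49 (SE 0.18, adjusted p = 8.5e-04) without and 2.16 (SE 0.18, adjusted p = 8.6e-05) with RBCs. Itgb5, a partner of αV, had 2.09 and 0.886 FPKM in HSCs without and 2.01 and 1.99 with RBCs, and 15.3 and 16.8 in LSK cells without and 30.4 and 33.2 with RBCs. It was higher in LSK cells by 2.82 (SE 0.21, adjusted p = 6.4e-05) without and 3.45 (SE 0.21, adjusted p = 1.3e-05) with RBCs. Both chains were called in both comparisons of the populations, where 2.66% of all genes were called without RBCs and 3.61% with RBCs. With RBCs they rose in LSK cells by under 2-fold, Itgb7 by 0.81 (adjusted p = 0.042) and Itgb5 by 0.95 (adjusted p = 0.043). Both rises were near the threshold: Itgb5 missed an adjusted p of 0.05 without any 1 of the 4 LSK libraries (0.13 to 0.23), and Itgb7 without any but the first library without RBCs (0.18 to 0.21).

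The balance of αV and α4 with these β chains differed between the populations. The ratio of β5 to αV was 0.305 to 0.733 in HSCs and 5.51 to 9.02 in LSK cells, while that of β7 to α4 was 0.657 to 1.02 and 1.87 to 2.90. In LSK cells, then, RNA of the alternative β chain exceeded that of the α chain in every library. The ratio of αE to β7 was 0.276 and 0.434 in HSCs without RBCs, 1.57 and 1.36 with RBCs, 0.144 and 0.256 in LSK cells without and 0.332 and 0.309 with RBCs.

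**Figure D5:**
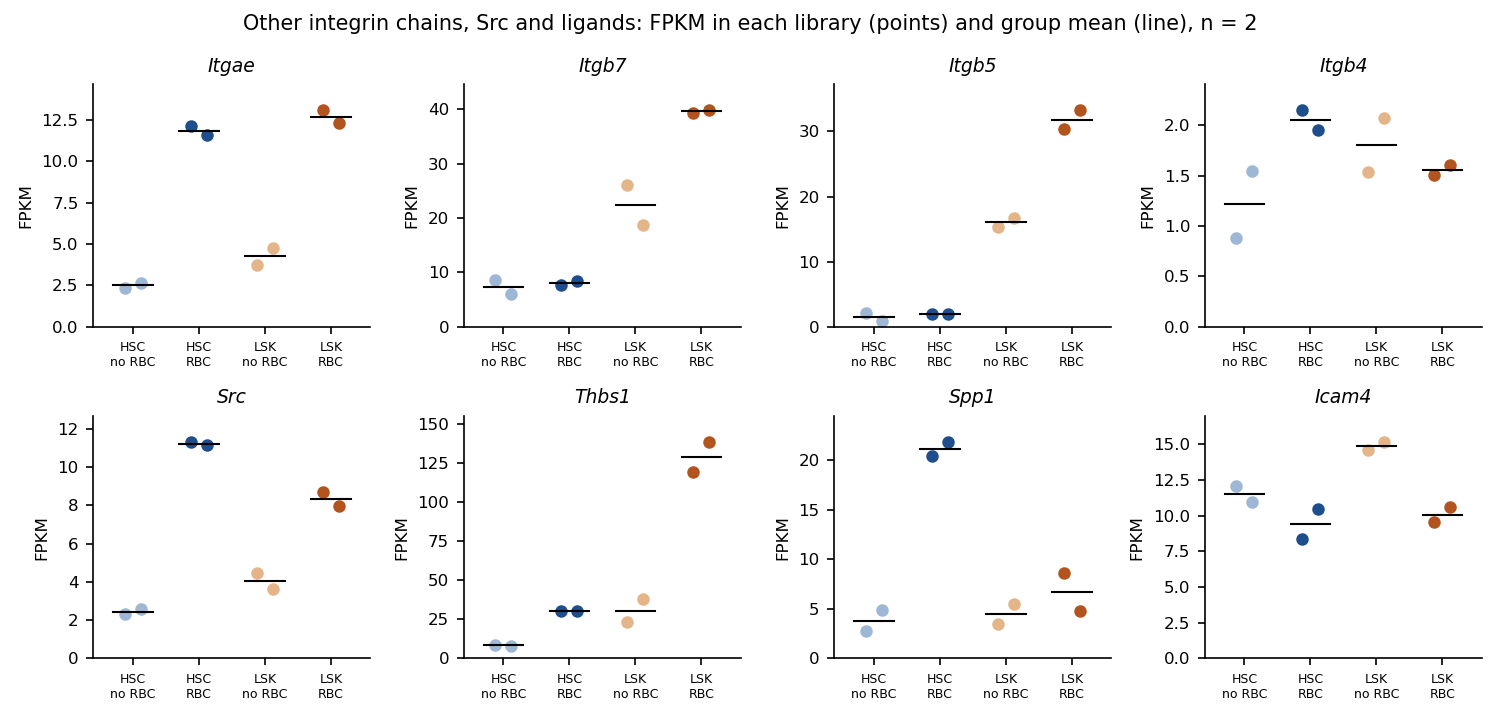
FPKM (vertical axes, linear, from 0) of 4 other integrin chains, the kinase Src and 3 integrin ligands in each of the 8 libraries, with points for libraries and lines for means of 2. Itgae and Src are higher in all libraries with RBCs than in all without, and Itgb7 and Itgb5 are higher in all LSK libraries than in all HSC libraries.

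Integrins bind only once proteins at their cytoplasmic tails, such as talin and kindlin-3, switch them on, and kinases carry the signal onward. Of 36 such activators, adaptors, inhibitors and kinases, 29 were tested. Src was the 1 of these called in HSCs, where 0.775% of all genes were called. Src, the tyrosine kinase that acts below β2 and β3 integrins, had 2.31 and 2.57 FPKM in HSCs without RBCs and 11.3 and 11.1 with RBCs, and 4.47 and 3.62 in LSK cells without and 8.73 and 7.99 with RBCs. It rose by 1.83 (SE 0.14, adjusted p = 3.1e-04) in HSCs and, under 2-fold, by 0.90 (SE 0.14, adjusted p = 0.011) in LSK cells. The latter missed an adjusted p of 0.05 without the second LSK library without RBCs (0.071) or either with RBCs (0.090 and 0.067). Over these 29 genes the median change was 0.09 (HSCs) and 0.04 (LSK cells). By the adjusted p alone 4 of the 29 rose in HSCs (2.53% of all genes passed in either direction), and 1 rose and 1 fell in LSK cells (3.45%). Between LSK cells and HSCs 5 were higher and 2 lower without RBCs (14.2% of all genes), and 5 higher and 6 lower with RBCs (24.4%), all under 2-fold. Of the 10 membrane proteins that bind integrins at the cell surface, mainly tetraspanins, all were tested: by the adjusted p alone 1 rose in HSCs (2.53% of all genes), and 3 rose and 1 fell in LSK cells (3.45%). Between LSK cells and HSCs 1 was higher and 5 lower without RBCs (14.2%), and 2 were higher and 4 lower with RBCs (24.4%), and every one of these was under 2-fold.

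Among 27 integrin ligands 17 were tested. With RBCs 3 were called in HSCs (Spp1, Thbs1 and Gp1ba), where 0.775% of all genes were, and 1 in LSK cells (Thbs1), where 1.01% were. By the adjusted p alone 4 rose and 2 fell in HSCs (2.53% of all genes) and 1 rose in LSK cells (3.45%), and the median change of the 17 was -0.17 and -0.08. Thbs1, the matrix protein thrombospondin-1, had 8.68 and 7.93 FPKM in HSCs without RBCs and 30.0 and 30.2 with RBCs, and 22.9 and 38.0 in LSK cells without and 119 and 139 with RBCs. It rose by 1.74 (SE 0.19, adjusted p = 0.0020) in HSCs and by 2.09 (SE 0.19, adjusted p = 6.9e-04) in LSK cells, and was 1.72 and 2.06 higher in LSK cells than in HSCs (adjusted p = 5.4e-04 and 1.3e-04). Its level was highest in LSK cells with RBCs.

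Spp1, which encodes osteopontin, a ligand of αV and α4 integrins, had 2.74 and 4.87 FPKM in HSCs without RBCs and 20.4 and 21.8 with RBCs, a rise of 2.24 (SE 0.29, adjusted p = 0.0043). In LSK cells it had 3.47 and 5.48 without and 8.65 and 4.76 with RBCs, which overlapped, and with RBCs it was lower in LSK cells than in HSCs by 1.57 (adjusted p = 0.0049). Gp1ba, the platelet receptor chain that αM binds, had 2.44 and 2.78 FPKM in HSCs without and 8.37 and 5.85 with RBCs, a rise of 1.15 (SE 0.19, adjusted p = 0.014). That call was lost without either HSC library without RBCs (adjusted p = 0.066 in each) and without the first with RBCs (0.11), and testing all genes above 0 ended it (0.082) and that of Spp1 (0.056). Icam1, the main ICAM ligand of LFA-1 and Mac-1, named after its values were seen, had 30.0 and 29.0 FPKM in HSCs without and 58.03 and 45.4 with RBCs. It rose there by 0.78 (SE 0.12, adjusted p = 0.012), under 2-fold, and differed by 0.43 in LSK cells (adjusted p = 0.10). Icam2, another ICAM gene among the ligands, differed the other way, by -0.34 in HSCs (adjusted p = 0.17) and -0.20 in LSK cells (adjusted p = 0.36). Icam4, the ICAM protein known from the RBC surface, was not called: it had 12.1 and 10.9 FPKM in HSCs without and 8.34 and 10.5 with RBCs, and 14.6 and 15.2 in LSK cells without and 9.54 and 10.6 with RBCs. Its changes with RBCs were -0.27 (adjusted p = 0.41) and -0.52 (adjusted p = 0.07).

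Several ligands of adjoining cells and of the vessel wall were lower in LSK cells than in HSCs, 4 called without RBCs (Jam3, Jam2, Vwf and Sema7a), where 2.66% of all genes were called in either direction, and 5 with RBCs (Spp1, Col4a1, Jam2, Vwf and Jam3), where 3.61% were. Jam3, the junctional protein that αM binds, had 17.1 and 15.7 FPKM in HSCs without RBCs, 8.09 and 9.83 with RBCs, 2.90 and 3.89 in LSK cells without and 3.91 and 3.96 with RBCs. Its difference between LSK cells and HSCs was -1.99 (adjusted p = 8.5e-05) without and -1.01 (adjusted p = 0.0020) with RBCs. Jam2 differed by -1.22 and -1.09, and Vwf, von Willebrand factor, by -1.08 and -1.07. Sema7a, a ligand of β1 integrins, differed by -1.02 without RBCs, and Col4a1, a basement membrane collagen chain, by -1.13 with RBCs. Some of these calls lay at the edge of a threshold: Sema7a was lost without the second HSC library without RBCs (-0.89, adjusted p = 0.052), Jam3 and Col4a1 fell under 2-fold with RBCs without the second HSC library with RBCs (-0.88 and -0.94), and Jam3 also without the first LSK library with RBCs (-0.9997).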

How the data were processed

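Total RNA libraries of about 3000 sorted cells were made with SMART-Seq HT and Nextera XT and sequenced on an Illumina HiSeq instrument. The deposited FPKM values, 1 per gene symbol and library, were normalized by the authors for transcript length and depth. The submitters' processing notes name TopHat2 2.1.1, Bowtie2 2.2.8, SAMtools 0.1.18, Cuffdiff 2.2.1 and mm10; their settings and the annotation are not given in the sources used here. Groups were taken from the sample labels. From the deposited values log2(FPKM + 1) was computed for genes with at least 1 FPKM in at least 2 libraries, and limma 3.58.1 in R 4.3.3 fitted the 4 group means together, with a mean-variance trend and no replicate block. Adjusted p-values (Benjamini-Hochberg) are over all 12003 genes, and 95% intervals are not adjusted. A call needed an adjusted p under 0.05 and a 2-fold change. An exact permutation test of 2 against 2 libraries cannot fall below p = 0.333, so every call depends on the error that limma pools over genes. Folds on this scale understate the changes of low genes. The procedure was tested on simulated data. Positions came from GENCODE M21 (GRCm38), the assembly of mm10, and promoters from RefSeq.

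The members and lists were chosen with earlier results of these data known. Named were all 10 chains; from the lists of other chains, activators and adaptors, ligands and membrane proteins, the genes called in at least 1 comparison (at most 6 per list and comparison); Icam4 in any case; and for the 2 most variable chains the 5 genes of most like pattern. Icam1, Icam2, S100a8, Gbp4 as an example and single marker genes were named after their values were seen. Alternatives covered the pseudocount, the filter, scaling, a replicate block, which libraries were fitted, the trend, the fold threshold and the omission of each library.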

Additional observations from a re-analysis of the deposited data

How the results depend on the processing

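Over the 9 chains other than Itgam, the number called with RBCs in HSCs was 1 and became 2 with a pseudocount of 0.1 or 0.5 or with no fold threshold, and 0 when all genes above 0 were tested or without the mean-variance trend; with 1 library left out it was 0 to 1. In LSK cells it was 2 and became 1 when all genes above 0 were tested, when only the libraries of the comparison were fitted or without the trend; with 1 library left out it was 0 to 1. Between LSK cells and HSCs with RBCs it was 1, and 3 with no fold threshold. The counts of 1 between LSK cells and HSCs without RBCs and of 0 for the interaction were the same under every alternative run. A replicate block left all 5 counts as they were (1, 2, 1, 1 and 0), took the rise of Itgb5 in LSK cells past an adjusted p of 0.05 (0.065), and the difference of Col4a1 between LSK cells and HSCs without RBCs, under 2-fold, as well (0.053). No other adjusted p of the chains, Src or the refitted ligands crossed 0.05 under it, and Icam1, Icam2 and the cell type markers were not refitted. No source used here says whether libraries with the same number share an animal or a culture. The correlations of their deviations over all genes ran from -0.067 to 0.095. Such correlations cannot show whether a shared source acted on a few genes. With a library left out, 1 group holds a single library, which is assumed to vary like the others. Small differences changed sign. With a pseudocount of 0.1 the interaction of Itgal was 0.0593. Quantile normalization gave -0.0658 for Itgav between LSK cells and HSCs with RBCs and 0.0361 for its interaction. Median scaling gave -0.0219 for Itgav in the former, and for Itga2b -0.0036 with RBCs in LSK cells and -0.0066 between LSK cells and HSCs without RBCs. With 1 library left out, the change with RBCs ran in HSCs from -0.0788 to 0.179 for Itga5 and from -0.0111 to 0.155 for Itga6, and in LSK cells from -0.0430 to 0.108 for Itgb1 and from -0.0130 to 0.0595 for Itga2b. The difference between LSK cells and HSCs without RBCs ran from -0.0343 to 0.0830 for Itga2b, -0.0380 to 0.0242 for Itgav and -0.118 to 0.182 for Itgb3, and with RBCs from -0.0587 to 0.0849 for Itgav. The interaction ran from -0.24 to 0.35 for Itgb2 and from -0.0918 to 0.0518 for Itgav. The cause of these shifts was not tested. About 24 to 593 reads per library limit the precision for Itgal.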
